A study of Danio rerio with 6 samples.

Results

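The dose order of gene expression was described in 96 hour-old zebrafish embryos whose parents had lived in water with graded amounts of copper. Transcripts were kept where FPKM (the deposited unit: fragments relative to transcript length and library size) was at least 5 in all 3 libraries of 96 hours post fertilization (hpf). This left 11099 of 58002 identifiers, or 19.1%, of which 5 are gene IDs and the others transcript IDs. They held 89.6% of the summed FPKM in control and 90.5% at 0.156 µM. A further 2233 identifiers reached 5 FPKM in at least 1 of the libraries but not in all, and they enter only as an alternative. The limit is a cut through a continuum. The transcripts just inside it, ENSDART00000091183, ENSDART00000171787 and ENSDART00000166981, had 5.00 FPKM each in their lowest library. Those just outside it, ENSDART00000054981, ENSDART00000149903 and ENSDART00000110121, also had 5.00 FPKM in their lowest library after rounding.

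The embryos (F1) were offspring of wild-type AB zebrafish that were 3 months old when exposure began. The parents (F0) were held for at least 21 days in normal water (control), in 0.078 µM copper (5 µg per litre) or in 0.156 µM copper (10 µg per litre). Embryos of all 3 groups grew in water without added copper, and 50 to 60 of them per group were lysed at 96 hpf for 1 RNA-seq library. Libraries of 24 hpf from the same 3 parental groups were used beside them. Phenotype guided the choice of embryos, per the design text of the series, and its part cannot be told apart from that of parental dose. The same text mentions 3 biological repetitions, but the sources used here do not say whether these were combined before sequencing. With 1 library per group there is no replicate error, no test was run, and every count below describes these libraries. In whole embryos, fewer cells of a type and less RNA per cell cannot be told apart.

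Copper is an essential metal that serves as a cofactor of enzymes in respiration, antioxidant defence and connective tissue, and it is toxic in excess. Cells take it up through dedicated transporters, hand it on by chaperones and bind the surplus in metallothioneins. At 96 hpf a zebrafish larva has usually hatched and has a beating heart, working muscle, eyes and a developing gut and liver, so that a whole-body library mixes the transcripts of many tissues. None of the transcript IDs is paired with a gene in the files or the gene tables used here, and 0 of the gene IDs belong to the 24 lists of copper, methylation, stress and tissue genes. Members are therefore named by Ensembl transcript ID, their roles are not given, and tissue markers were not checked.

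The libraries of 96 hpf were alike in overall properties. Between 25008 and 25271 identifiers reached 1 FPKM, and 11.9% to 12.1% were listed at 0. Summed FPKM was 476499 in control, 486953 at 0.078 µM and 491171 at 0.156 µM, in the order of dose. Total depth is unknown. The worth of 1 fragment, read from the steps of low values, put the 0.078 µM library at 1.07 times the depth of control and the 0.156 µM library also at 1.07 times. Such ratios were sought only near 1.

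In most kept transcripts the sorted values of the 3 libraries lay close to each other. Differences and folds were taken on log2(FPKM + 1), a scale with a pseudocount of 1 that slightly understates the change of low transcripts. Each fold given is thus a ratio of FPKM + 1, and is smaller than the ratio of the FPKM values printed beside it. A transcript was called stepwise where its lowest, middle and highest library were separated by gaps of at least 0.5 each (1.41-fold). A single library was called apart where the nearest other library lay at least 0.5 away and the remaining 2 lay within 0.25 of each other (1.19-fold). Both gaps were below 0.25 in 9427 transcripts (84.9%), which are called level here. The limit is on each gap, so the full range of a level transcript can approach 0.5. Another 1437 (12.9%) met none of these definitions. Stepwise transcripts numbered 23 (0.207%) and those with 1 library apart 212 (1.91%).

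**Figure D1:**
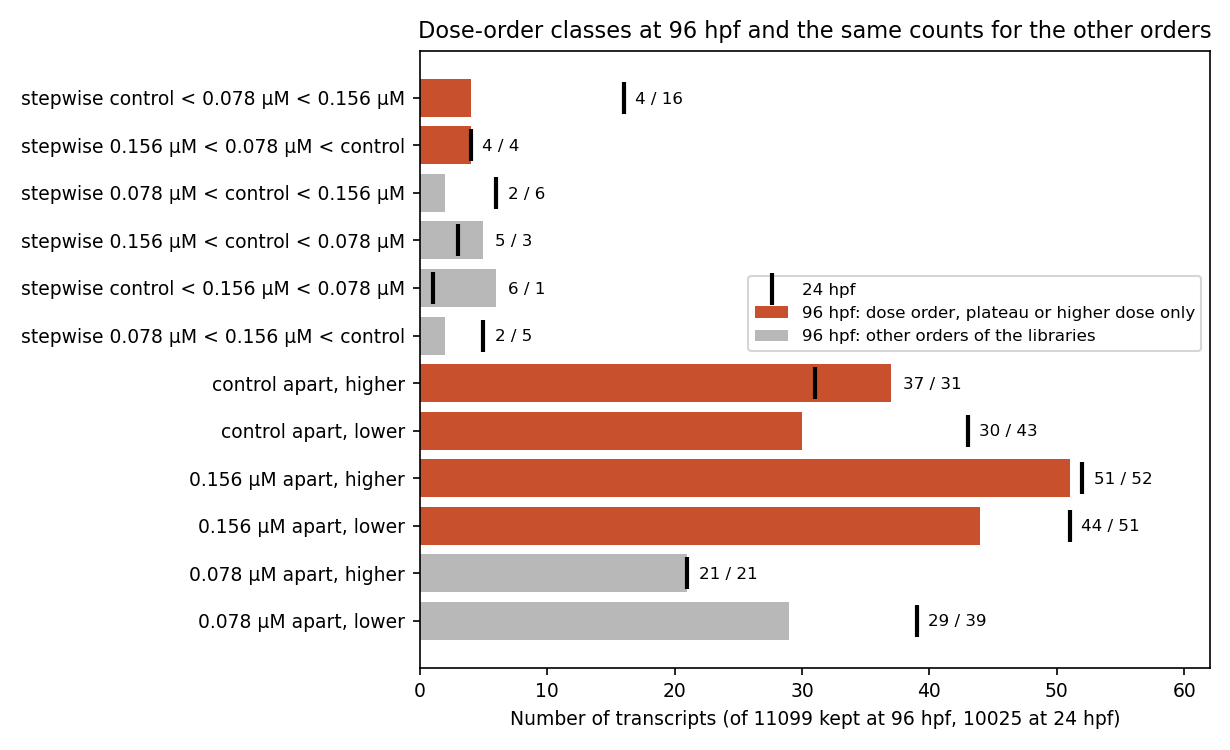
Number of transcripts (horizontal axis) in each of the 6 stepwise orders and the 6 classes with 1 library apart at 96 hpf (bars), and the same counts at 24 hpf (black marks); the numbers at the right are those of 96 hpf / 24 hpf. Red bars are the dose patterns and grey bars the other orders: the stepwise dose orders hold 4 transcripts each, while the library of 0.156 µM stands apart in more transcripts than either of the others.

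A stepwise order with dose was no more frequent than the other orders. Levels were higher with each dose in 4 transcripts (0.0360% of those kept) and lower with each dose in 4 (0.0360%), 8 in all. With control between the copper libraries there were 7, namely 2 with 0.156 µM highest (0.0180%) and 5 with 0.078 µM highest (0.0450%). With 0.156 µM between the others there were 8, namely 6 with 0.078 µM highest (0.0541%) and 2 with control highest (0.0180%). The sums of 8, 7 and 8 are alike. Rescaling the libraries to equal sums gave 13 with dose, 9 with control between and 9 with 0.156 µM between. That rescaling also raised all values, so that the pseudocount weighed less. A pseudocount of 0.1 gave 13, 10 and 9, and a lower limit of 1 FPKM in all libraries gave 49, 32 and 24. Centring each library on its median gave 7, 7 and 8, and quantile normalization, which sets the distributions equal, gave 8, 6 and 8. The even split thus depends on the limit and the pseudocount, and held under some scalings only.

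A plateau after the first dose corresponds to control apart from copper libraries that lie together. It was found in 67 transcripts, of which 37 were higher in control (0.333%) and 30 lower (0.270%). A difference at the higher dose only corresponds to 0.156 µM apart. It was found in 95 transcripts, 51 higher (0.460%) and 44 lower (0.396%). The remaining pattern, 0.078 µM apart from control and 0.156 µM, has no place in a dose order and serves as the comparison. It was found in 50 transcripts, 21 higher (0.189%) and 29 lower (0.261%). The higher dose alone was thus the most frequent of the 3 patterns, and 0.078 µM alone the least frequent. At 24 hpf the ranking was the same, with 0.156 µM apart in 103 transcripts (1.03%), control in 74 (0.738%) and 0.078 µM in 60 (0.599%). All 3 libraries enter each class, so the counts are not independent of each other.

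At a fold of 2 on the same scale, 0.078 µM exceeded control in 20 kept transcripts (0.180%) and lay below it in 19 (0.171%). The 0.156 µM library exceeded control in 25 (0.225%) and lay below it in 27 (0.243%). Between the doses, 0.156 µM was the higher in 24 (0.216%) and the lower in 27 (0.243%). Among all 27496 identifiers that reached 1 FPKM in any library of this stage, the corresponding shares were 1.86% and 2.17% for the lower dose, 2.25% and 2.41% for the higher dose, and 2.25% and 1.95% between the doses. Asking for 5 FPKM in every library removes transcripts that fall to a low level in 1 of them, so smaller shares follow from the limit.

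**Figure D2:**
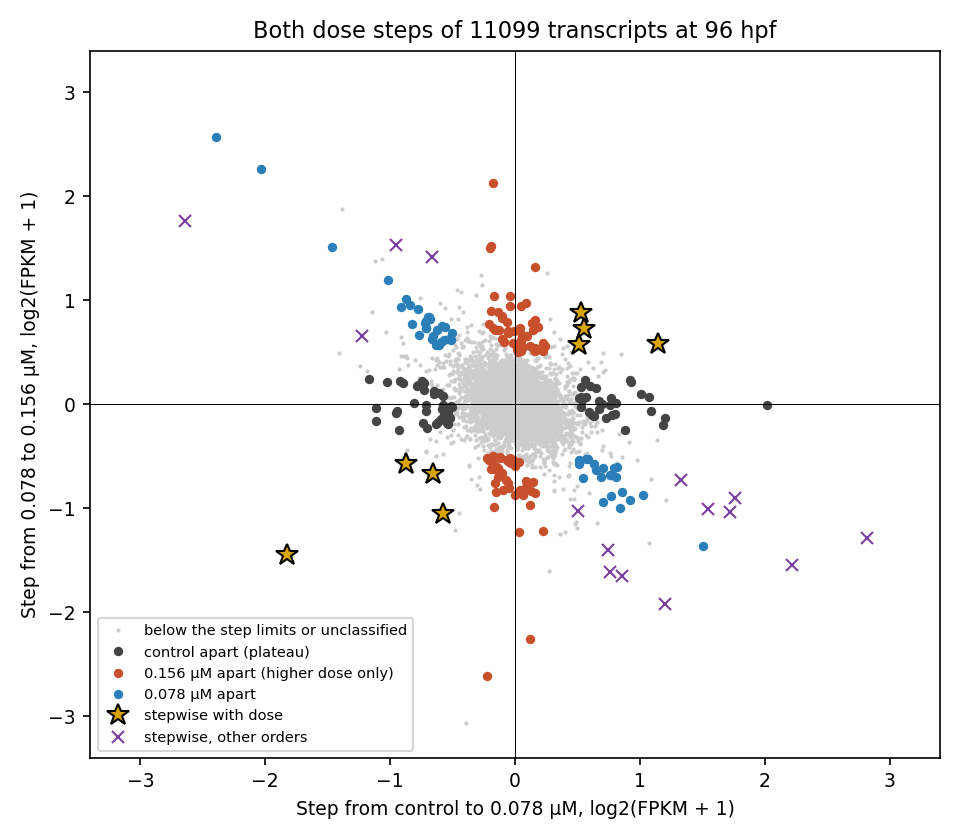
Step from control to 0.078 µM (horizontal) against step from 0.078 to 0.156 µM (vertical), both as differences of log2(FPKM + 1), for 11099 transcripts at 96 hpf, with the classes marked. The 0.078 µM library enters both steps with opposite sign, so points spread from upper left to lower right; the 8 transcripts that are stepwise with dose are stars, and the 15 of the other orders crosses.

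The 4 transcripts that were higher with each dose lay at moderate levels. ENSDART00000039129 had 11.7, 27.1 and 41.1 FPKM in the control, 0.078 µM and 0.156 µM libraries. These are log2 steps of 1.14 and 0.58, and FPKM + 1 differed 3.30-fold between control and the higher dose. ENSDART00000167651 had 14.0, 21.0 and 35.3 FPKM in the same order, a 2.42-fold difference. These transcripts behaved differently at 24 hpf. ENSDART00000039129 was again lowest in control, with 39.0 FPKM against 58.5 and 56.5 FPKM, but ENSDART00000167651 was highest there, with 33.5 FPKM against 24.7 and 28.3 FPKM. ENSDART00000098927 had 8.54, 12.7 and 24.3 FPKM at 96 hpf, a log2 change of 1.41 to the higher dose, and 27.8, 11.2 and 9.20 FPKM at 24 hpf. Its order with dose was thus turned around between the stages. ENSDART00000164837 had 7.31, 10.8 and 16.5 FPKM at 96 hpf and 9.51, 12.3 and 14.0 FPKM at 24 hpf. It was the only one of the 4 with the dose order at both stages, by smaller steps at 24 hpf (0.34 and 0.18).

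Of the 4 transcripts that were lower with each dose, ENSDART00000151084 had the widest range. It stood at 105, 29.0 and 10.0 FPKM in order of dose, log2 steps of -1.83 and -1.45 and a 9.67-fold difference. At 24 hpf it was also highest in control, at 102 FPKM, but lowest at 0.078 µM with 16.6 FPKM and intermediate at 0.156 µM with 50.4 FPKM. Control was the highest library at either stage, while the copper libraries changed places. ENSDART00000166413 had 42.4, 28.2 and 13.0 FPKM at 96 hpf and 39.4, 42.8 and 38.9 FPKM at 24 hpf, where it was level. ENSDART00000137272 had 106, 67.2 and 41.9 FPKM at 96 hpf and was below 0.001 FPKM in the 3 libraries of 24 hpf. ENSDART00000111374 had 19.5, 10.2 and 6.55 FPKM at 96 hpf, with 12.0, 10.9 and 20.8 FPKM at 24 hpf. There the higher dose was the highest library, in place of the lowest.

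The other stepwise orders held transcripts with changes of the same size, named here after their values were seen. ENSDART00000149114 had 7.68, 60.1 and 24.1 FPKM, listed as before by dose. ENSDART00000150163 had 106, 16.1 and 57.0 FPKM. The lower dose was the highest library in the former, with log2 steps of 2.81 and -1.28, and the lowest in the latter, with log2 steps of -2.64 and 1.76. ENSDART00000144503 had 65.8, 33.4 and 98.5 FPKM, with control in the middle. The median of the larger gap was 0.80 over the 4 transcripts that were higher with each dose and 0.96 over the 4 that were lower. With 0.156 µM between the others it was 1.02 where 0.078 µM was highest (6 transcripts) and 1.21 where control was highest (2). With control between it was 0.85 where 0.156 µM was highest (2) and 0.84 where 0.078 µM was highest (5). The dose orders thus lay within the range of the others or just below it.

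**Figure D3:**
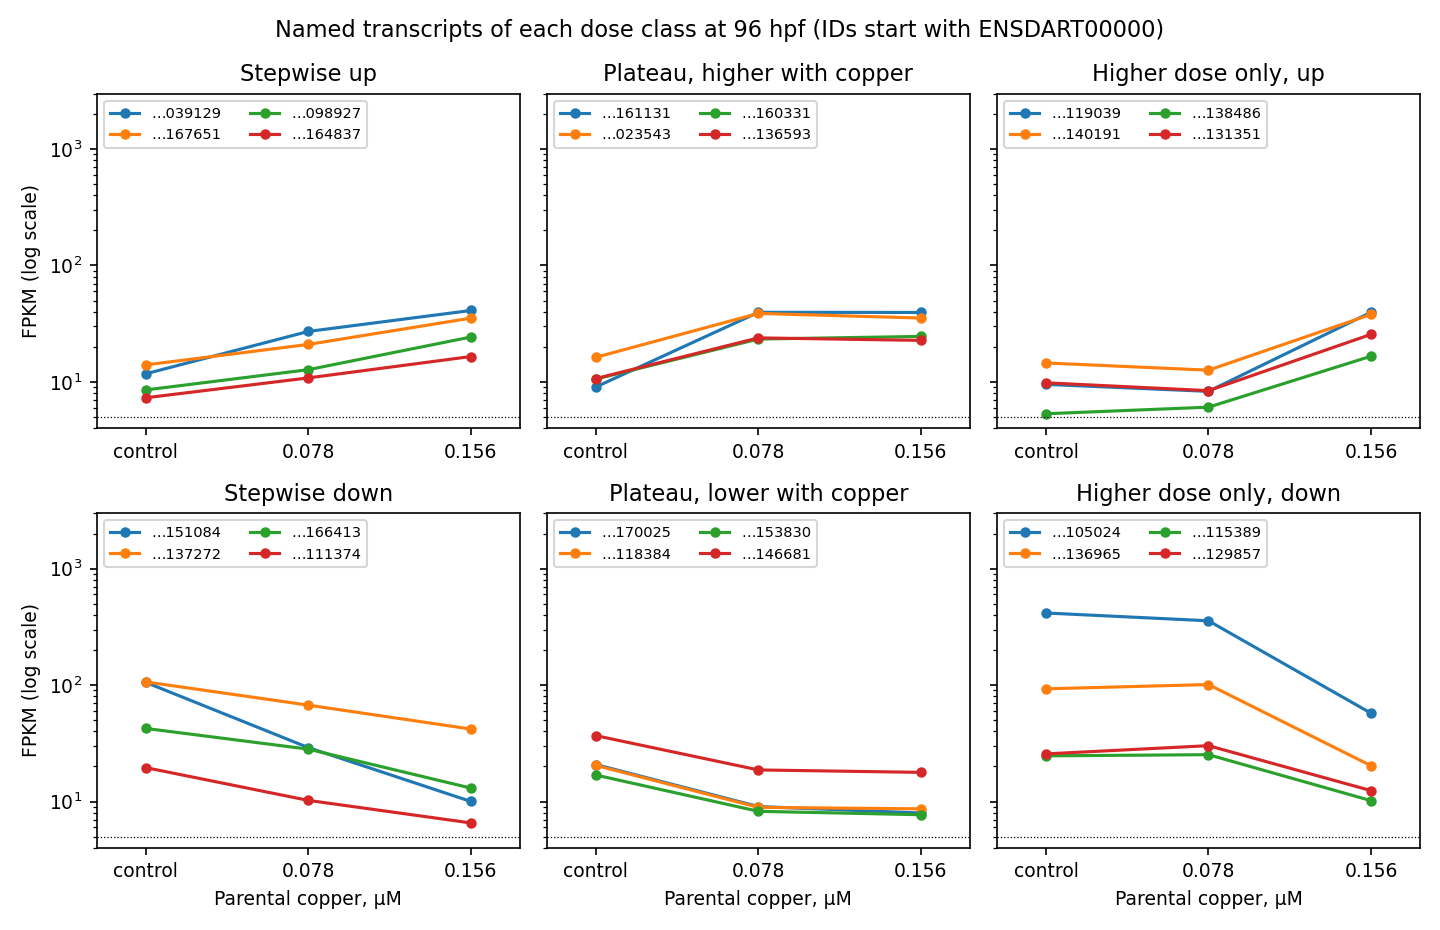
FPKM (log axis) in the control, 0.078 µM and 0.156 µM libraries of 96 hpf for the 24 named transcripts of the 6 dose classes, 1 line per transcript; the dotted line is the limit of 5 FPKM. Levels run from 5.33 FPKM (ENSDART00000138486 in control) to 416 FPKM (ENSDART00000105024 in control).

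Among the 30 transcripts lower in control than in both copper libraries, the larger gap had a median of 0.66 and reached 2-fold in 5. The widest was that of ENSDART00000161131, with control at 9.05 FPKM and the copper libraries at 39.6 and 39.5 FPKM, a 4.03-fold difference. At 24 hpf its values were 1.69, 14.2 and 0.00114 FPKM, so that the copper libraries of that stage were the highest and the lowest. ENSDART00000023543 had 16.3, 38.8 and 35.4 FPKM at 96 hpf and at most 0.324 FPKM at 24 hpf. ENSDART00000160331 had 10.6, 23.3 and 24.6 FPKM at 96 hpf and, at 24 hpf, 10.6, 19.1 and 30.7 FPKM. It was lowest in control at both stages, as a plateau at 96 hpf and stepwise with dose at 24 hpf. ENSDART00000136593 had 10.7, 23.9 and 22.7 FPKM at 96 hpf and 9.17, 10.3 and 4.98 FPKM at 24 hpf.

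Among the 37 transcripts higher in control, the larger gap had a median of 0.59 and reached 2-fold in 2. ENSDART00000170025 had 20.8, 9.05 and 7.96 FPKM, a 2.43-fold difference between control and the higher dose. At 24 hpf it was again highest in control, with 6.37, 2.84 and 0.971 FPKM. ENSDART00000118384 had 20.4, 8.90 and 8.65 FPKM at 96 hpf but 10.8, 22.1 and 15.2 FPKM at 24 hpf, with control lowest. ENSDART00000153830 had 16.9, 8.24 and 7.70 FPKM, and ENSDART00000146681 36.8, 18.7 and 17.8 FPKM. The latter had 34.8 and 35.5 FPKM in control and 0.078 µM at 24 hpf against 75.2 FPKM at 0.156 µM, so that the higher dose stood apart on the upper side there.

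The 51 transcripts higher at 0.156 µM only had a median larger gap of 0.63, which reached 2-fold in 4. ENSDART00000119039 had 9.52, 8.30 and 39.6 FPKM, a 3.86-fold difference from control, and was listed at 0 in the 3 libraries of 24 hpf. ENSDART00000140191 had 14.5, 12.6 and 38.0 FPKM, with 13.4, 8.99 and 6.39 FPKM at 24 hpf, where the higher dose was lowest. ENSDART00000131351 had 9.83, 8.41 and 25.6 FPKM, with 2.41, 1.49 and 4.01 FPKM at 24 hpf. ENSDART00000138486 had 5.33, 6.07 and 16.6 FPKM, with 0.0969, 0.154 and 0.362 FPKM at 24 hpf. In these last 2 the higher dose was the highest library at both stages, at lower levels at 24 hpf.

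The 44 transcripts lower at 0.156 µM only had a median larger gap of 0.64, which reached 2-fold in 3. ENSDART00000105024 was the most abundant of the named members of the dose classes, at 416, 356 and 57.3 FPKM, a 7.15-fold difference. At 24 hpf it had 630.3, 259.5 and 386 FPKM, with the lower dose lowest. ENSDART00000136965 had 92.8, 101 and 20.3 FPKM at 96 hpf, and 45.6, 1.31 and 43.3 FPKM at 24 hpf. It was low in a single copper library at either stage, and not at the same dose. ENSDART00000115389 had 24.7, 25.2 and 10.2 FPKM at 96 hpf and was level at 24 hpf, at 64.8 FPKM or more in each library. ENSDART00000129857 had 25.6, 30.2 and 12.4 FPKM at 96 hpf and 7.06, 15.2 and 13.6 FPKM at 24 hpf, where control was lowest.

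The classes were also assigned at 24 hpf. Of the kept transcripts, 8062 (72.6%) also had 5 FPKM or more in all libraries of 24 hpf, which the choice of members did not use. Members below that limit at 24 hpf could not be classed there. Each stepwise order took between 0.0124% and 0.136% of the 8062 at 24 hpf, and with such shares a count of 0 says little about the members. None of the 23 stepwise transcripts had the same stepwise class at 24 hpf, and no stepwise order had more than 4 members that could be classed. Of the 37 with control apart on the upper side, 1 did (2.70%), which is 3.23% of the 31 of that class at 24 hpf. Of the 51 and 44 with 0.156 µM apart, 1 (1.96%) and 2 (4.55%) did, which are 1.92% and 3.92% of the 52 and 51 at 24 hpf. None of the 30 with control apart on the lower side did. Counting only transcripts kept at both stages, the same class was found in 1 of 19 with control higher (5.26%), 0 of 22 with control lower, 1 of 27 with 0.156 µM higher (3.70%) and 2 of 23 with 0.156 µM lower (8.70%). Over all 8062 these classes took 0.323%, 0.335%, 0.273% and 0.434% at 24 hpf. The comparison pattern, 0.078 µM apart, recurred to a similar extent. It had the same class in 0 of 10 with 0.078 µM higher and 1 of 17 with it lower (5.88%), against 0.112% and 0.31% of the 8062. Each of these counts is of 2 transcripts or fewer.

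The side on which a library stood was followed in the same way. Of the 22 transcripts with control lowest by a step at 96 hpf and kept at both stages, control was also below both copper libraries at 24 hpf in 10 (45.5%), against 34.4% of all 8062. With control highest it was 8 of 19 (42.1%), against 35.1% of all. With 0.156 µM highest it was 8 of 27 (29.6%) against 31.9%, and with 0.156 µM lowest 7 of 23 (30.4%) against 33.7%. With 0.078 µM highest it was 1 of 10 (10.0%) against 32.9%, and with 0.078 µM lowest 6 of 17 (35.3%) against 31.9%.

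Members of these classes that were kept at both stages were level at 24 hpf less often than transcripts level at 96 hpf. Of the 7021 transcripts that were level at 96 hpf and kept at both stages, 6384 (90.9%) were level at 24 hpf too. Of the 133 that were stepwise or had 1 library apart at 96 hpf, 52 (39.1%) were level at 24 hpf. At 24 hpf, 31 of these 133 (23.3%) were stepwise or had 1 library apart, against 70 (0.997%) of the level ones. Of these 31, 5 had the same class at both stages. Of all 8062 kept at both stages, 87.2% were level at 24 hpf and 168 (2.08%) were stepwise or had 1 library apart. Of the 908 that met none of the definitions at 96 hpf, these shares were 65.1% and 7.38%. The median over the 3 libraries' mean was 11.9 FPKM for all kept. It was 9.80 FPKM and 13.1 FPKM for control apart on the upper and lower side. In the same order it was 14.6 FPKM and 17.0 FPKM for 0.156 µM apart, and 11.2 FPKM and 12.2 FPKM for 0.078 µM apart. It was 19.3 FPKM for the transcripts stepwise upward with dose and 38.0 FPKM for those stepwise downward, and between 14.5 and 74.8 FPKM in the other stepwise orders. FPKM of a single transcript also depends on how the estimation divides fragments among transcripts of a gene. Its part in these patterns was not tested.

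At smaller steps the order of dose was the most frequent, counted by the library in the middle with both directions summed. With both steps at least 0.25, 100 transcripts were stepwise with dose (50 up and 50 down), 63 had control between and 45 had 0.156 µM between. With both at least 0.1 there were 820, 476 and 418, and at 0.4 there were 22, 19 and 14. Rescaling to equal sums changed the split by direction. It gave 46 up and 71 down with dose at 0.25, beside 63 with control and 53 with 0.156 µM between, and 326 up and 567 down at 0.1, against 428 and 392 as deposited. With the main filter, pseudocount and scaling, the excess of dose-ordered transcripts thus appeared at smaller steps and not at 0.5, where few remain. Some other settings showed it at 0.5 too. It was 49 against 32 and 24 with at least 1 FPKM in all libraries, and 13 against 9 and 9 after rescaling. Centring on the median did not show it at 0.5, with 7 against 7 and 8. At smaller steps centring left it in place, with 101 against 62 and 46 at 0.25 and 812 against 472 and 410 at 0.1. These step sizes were chosen after the counts at 0.5 were seen. Ranked without any minimum step, 0.078 µM lay between the others in 4510 of 11099 transcripts (40.6%), control in 3337 (30.1%) and 0.156 µM in 3252 (29.3%). Centring each library on its median left these shares at 39.9%, 31.1% and 29.0%. The standard deviation of the differences over transcripts was 0.20 from control to 0.078 µM, 0.21 between the doses and 0.23 from control to 0.156 µM. Some pair has to be the widest, and with 1 library per group dose and library cannot be told apart. Counts at a fold of 2 were 39, 51 and 52 for these pairs, and 7, 12 and 6 with at least 20 FPKM in all libraries.

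**Figure D4:**
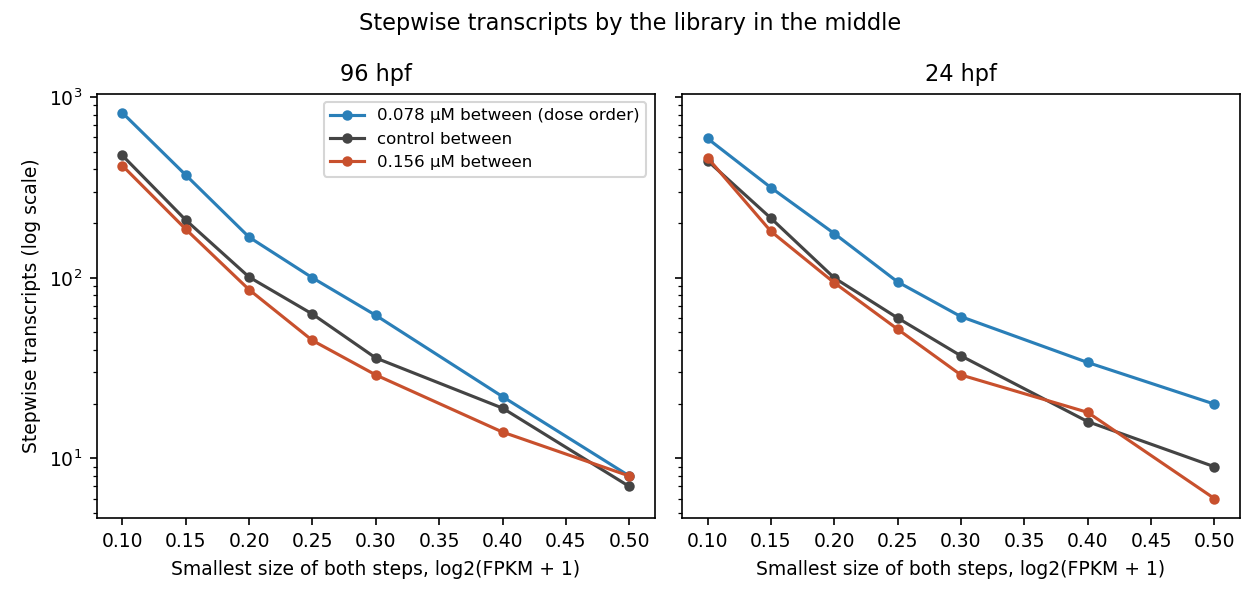
Number of stepwise transcripts (vertical, log axis) against the smallest size that both steps had to reach (horizontal, log2(FPKM + 1)), by the library in the middle, at 96 hpf (left) and 24 hpf (right). At 96 hpf the dose order (blue) leads from 820 transcripts at 0.1 down to 22 at 0.4 and meets the others at 0.5, with 8 against 7 and 8.

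At 24 hpf the dose order also led, with 95 against 60 and 52 transcripts at steps of 0.25, and with 20 against 9 and 6 at steps of 0.5. Of those 20, 16 were higher with each dose. Ranked without any minimum step at 24 hpf, 0.078 µM lay between the others in 34.9% of kept transcripts, 0.156 µM in 34.4% and control in 30.7%. Without a minimum step, the lead over 0.156 µM between was thus small at that stage. Of the 36 transcripts that were higher with each dose by 0.25 or more at 96 hpf and kept at both stages, 9 (25.0%) had that order at 24 hpf by any step, 8 (22.2%) had its reverse, and 16.8% of all 8062 had it. Of the 27 that were lower with each dose, 4 (14.8%) kept the order and 5 (18.5%) had its reverse, against 18.4% of all. The other orders were followed alike. With control between, 7 of 22 (31.8%) kept their order where 0.156 µM was highest, against 15.2% of all. Where 0.078 µM was highest it was 1 of 14 (7.14%) against 15.3%. With 0.156 µM between it was 5 of 16 (31.25%) against 17.6% where 0.078 µM was highest. Where control was highest it was 2 of 9 (22.2%) against 16.7%. With steps of 0.1, 57 of 311 (18.3%) kept the rising order with dose and 58 (18.6%) had its reverse. For the dose orders, the same order and the opposite one were thus about equally frequent at 24 hpf. The reverse was counted for the other orders too, at steps of 0.25 and in the sequence above. It was held by 6 of 22, 2 of 14, 2 of 16 and 0 of 9 transcripts. With 0.156 µM between, the same order was thus more frequent than its reverse, in small counts.

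The direction of the small differences depended on the level of the transcript. Over all kept transcripts the median step was 0.02 from control to 0.078 µM and 0.00 from there to 0.156 µM. Between control and 0.156 µM 56.5% of transcripts were higher in the latter. Rescaling each library to the same sum turned this to 45.7%, with a median of -0.02, so that the direction over all transcripts depends on the scaling. For transcripts with a mean of 5 to 10 FPKM the median difference between control and 0.156 µM was 0.01 as deposited, and it grew with level to 0.10 for the 321 transcripts at 200 FPKM or more. After rescaling the same medians were -0.03 and 0.06. Rescaling multiplies each library by a single factor and so moves the medians of all levels nearly alike. It shifts the zero point but could not have removed a rise with level. Other scalings were not run by level. The rise with level was not shared evenly by the 2 dose steps. As deposited, the median from control to 0.078 µM went from 0.00 at 5 to 10 FPKM to 0.06 at 200 FPKM or more. From 0.078 to 0.156 µM it was below 0.01 at all levels under 200 FPKM and 0.02 above.

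**Figure D5:**
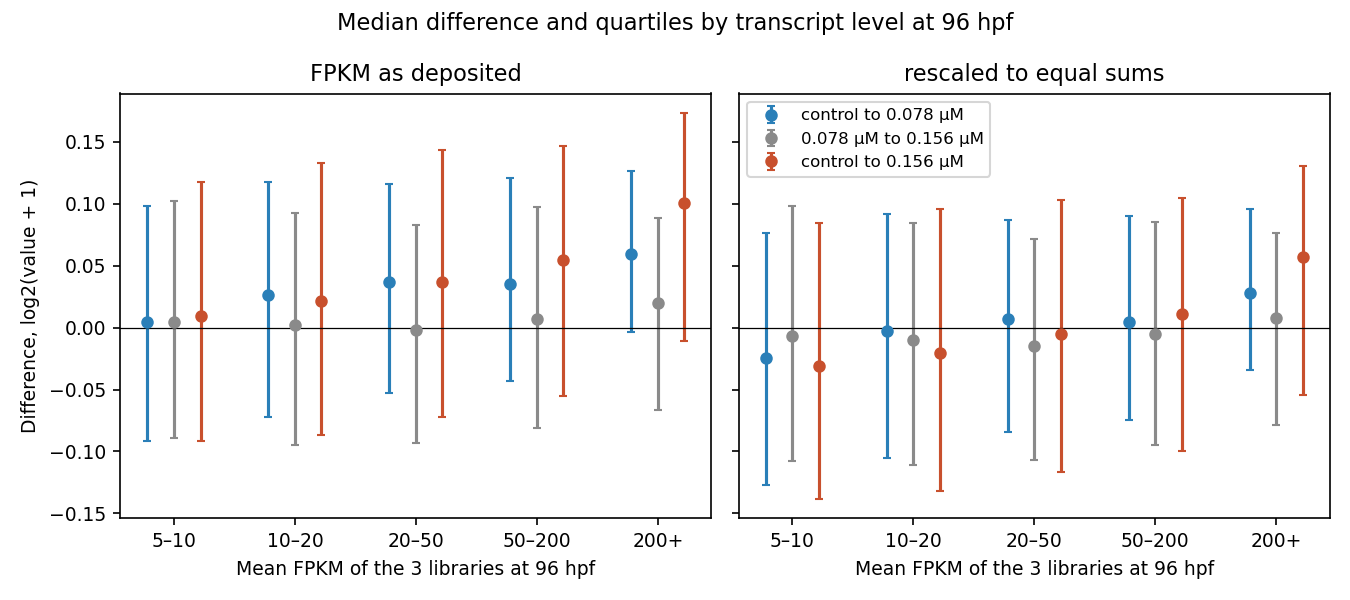
Median (points) and quartiles (bars) of the differences between libraries of 96 hpf, in log2(value + 1), by the mean FPKM of the transcript, as deposited (left) and after rescaling to equal sums (right). The median of 0.156 µM against control climbs from 0.01 to 0.10 as deposited and from -0.03 to 0.06 after rescaling.

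Among the 100 most abundant transcripts, a set chosen after the level dependence was seen, 79 were higher at 0.156 µM than in control, 54 were in rising order of dose and 5 in falling order. Of all kept transcripts, 56.5% were higher at 0.156 µM, 24.2% were in rising and 16.4% in falling order. Median differences over the 100 were 0.06 from control to 0.078 µM, 0.05 from there to 0.156 µM and 0.11 in all. By the limits above, 96 of the 100 were level. The most abundant of all, ENSDART00000158825, had 9469, 10289 and 11315 FPKM in order of dose, a 1.19-fold difference. ENSDART00000055062 had 5490.3, 5538 and 6469 FPKM, and ENSDART00000010144 had 5885, 5839 and 6331 FPKM. In these last 2 the first step was near 0 and the second upward. The 10 most abundant transcripts held 9.15% of summed FPKM in control, 9.23% at 0.078 µM and 9.84% at 0.156 µM.

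The same 100 transcripts went the other way at 24 hpf. There 89 were lower at 0.156 µM than in control and 11 higher, with a median difference of -0.07. Of all transcripts kept at 24 hpf, 51.1% were higher at 0.156 µM. Among the 100, 40 were in falling order of dose and 2 in rising order (17.4% and 17.6% of all kept at 24 hpf). The lowest difference was -10.7 on the log2 scale, and 97 of the 100 had at least 5 FPKM in all libraries of 24 hpf. ENSDART00000158825 had 4491, 4063 and 3849 FPKM at that stage. Higher at 96 hpf and lower at 24 hpf were 72 of the 100, against 30.9% of all transcripts kept at both stages. Rescaling to equal sums left 71 of 100 higher at 96 hpf, with 43 in rising and 9 in falling order. At 24 hpf it left 79 of 100 lower, with 4 in rising and 29 in falling order. Of all kept transcripts at 96 hpf, rescaling left 45.7% higher, 17.7% in rising and 22.4% in falling order. Centring on the median left 76 higher and 91 lower. Quantile normalization, which sets the distributions of the libraries equal and so removes most differences that follow the level, left 58 higher and 35 lower at 96 hpf, and 39 higher and 56 lower at 24 hpf. It left 32 in rising and 14 in falling order at 96 hpf, and 19 and 20 at 24 hpf. Of all kept transcripts at 96 hpf, quantile normalization left 53.1% higher, 22.4% in rising and 18.3% in falling order. The 58 higher of the 100 thus lay near the share over all kept. Shares over all transcripts kept at 24 hpf were not counted after rescaling or quantile normalization. Neither stage has a replicate to set these differences against.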

How the data were processed

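The deposited FPKM values, 1 per identifier and library, were used as the authors made them, per the file headers. The submitters' processing notes list Trimmomatic, TopHat2 and Cufflinks (version 2.1.1) with no order or settings. The genome build and the annotation were not given in the sources used here, nor was any scaling between libraries. Fragment counts are unknown, so no count model and no counting intervals were used. FPKM is divided by length and library size, and abundant transcripts can shift all other values of a library.

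Transcripts with at least 5 FPKM in the 3 libraries of 96 hpf were kept, values were taken as log2(FPKM + 1), and classes were assigned from the sorted gaps, with pandas 2.3.3 and numpy 2.4.6. The code of the class assignment was checked on simulated data. The planted steps lay well above the limit and the spread was smaller than in these libraries, so the check does not measure errors at the real spread. No test was run, as each group has 1 library. Relative depth was read from the fullest bin of width 0.01 among log2 ratios of values between 0.005 and 0.3 FPKM.

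Members, lists and rules were chosen with earlier results of these data known. Named transcripts are up to 5 with the largest smaller step in each dose-stepwise class, 4 with the largest step in each plateau and higher-dose-only class, 3 on each side of the limit and the 3 most abundant; exceptions are marked. Gene lists could not be applied, as 8 of 241 gene IDs had a symbol and 0 were listed.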

Additional observations from a re-analysis of the deposited data

Results flagged for a closer look

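ENSDART00000098927 was higher than control at both doses at 96 hpf and lower at both at 24 hpf, by at least 0.5 on the log2 scale each time, so that its direction against control was opposite in the libraries of the 2 stages. Its log2 change from control to 0.156 µM was 1.41 at 96 hpf and -1.50 at 24 hpf. No test of this difference could be made, as each group has 1 library.

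The median change from control to 0.156 µM of the 100 transcripts most abundant at 96 hpf was 0.11 at 96 hpf and -0.07 at 24 hpf, opposite in direction. Of these transcripts 97 had at least 5 FPKM in all libraries of 24 hpf. The 100 transcripts most abundant at 24 hpf, 77 of which are the same, had medians of 0.11 and -0.06. This difference was likewise not tested.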

How the results depend on the processing

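The library of 0.156 µM was apart in more transcripts than the others under all 12 alternatives, and control in more than 0.078 µM under 11 of them. All alternatives reuse the same 3 libraries, so they are not independent checks. Some library has to be apart most often. Counted by the library in the middle, with both directions summed, the dose order was the most frequent stepwise pattern under 6 of the 12. Counts are given for stepwise with control, 0.078 µM and 0.156 µM between, then for control, 0.078 µM and 0.156 µM apart, where the main counts were 7, 8, 8, 67, 50 and 95. They were 4, 4, 5, 33, 30 and 56 with a pseudocount of 5; 32, 49, 24, 294, 232 and 386 with at least 1 FPKM in all libraries; 1, 1, 2, 8, 5 and 25 with at least 20 FPKM in all. They were 52, 74, 43, 209, 145 and 253 with 5 FPKM in at least 1 library, and 170, 198, 140, 1225, 995 and 1301 with no filter. Steps of 0.25, with the limit for the other gap lowered in proportion, gave 63, 100, 45, 350, 237 and 407, and steps of 1 with the other gap below 0.5 gave 0, 1, 1, 7, 9 and 12. With the other gap below 0.1 the libraries apart numbered 33, 27 and 44. The dose order had 13 transcripts with a pseudocount of 0.1 and also 13 after rescaling to equal sums, against 9 with 0.156 µM between in either case.

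At a fold of 2 the main numbers were 39 for 0.078 µM against control, 51 between the doses and 52 for 0.156 µM against control. These were 20, 33 and 22 with a pseudocount of 5; 171, 195 and 232 with at least 1 FPKM in all; 7, 12 and 6 with at least 20 FPKM in all. With 5 FPKM in at least 1 library they were 288, 316 and 368, and with no filter 1108, 1156 and 1281. A fold of 1.5 gave 184, 220 and 288, and a fold of 4 gave 6, 6 and 5. The filters change how many transcripts enter, and the folds how far they must differ; other causes were not tested.

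A pseudocount of 5 moved the change from control to 0.156 µM by 0.25 or more in 12 of the 24 named transcripts of the dose classes. No paired analysis was possible because each group has 1 library. Sums over the transcripts of a gene were not run, as transcripts are not paired with genes here. Depth in fragments is unknown, which limits how far small steps can be read.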
